A study of Homo sapiens with 8 samples.

Results

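The transcripts described here are those of 10 genes of the microRNA pathway: 5 genes whose transcripts carry or overlap microRNAs (VMP1, NFYC, MIR100HG, MIR17HG and MIR22HG) and 5 genes for the proteins that process, export or use microRNAs (DROSHA, DGCR8, XPO5, DICER1 and AGO2). They were chosen by gene symbol, older names included, with earlier results of these data known. The platform annotation gave them 33 of the 54613 probe sets tested, and 27 of the 33 lay at or above the level of the median probe set, a signal of 31.2. The array as a whole gave 19775 genes with a probe set annotated to them alone, and comparisons by gene used 1 such probe set a gene. The members' values came from 8 Affymetrix arrays with RNA of H460, an established human non-small-cell lung carcinoma line. Resistant cells, on 4 arrays, had acquired resistance to TRAIL while receiving the ligand every day for 6 months at subtoxic doses. Sensitive cells, on the other 4 arrays, are labelled as controls; the text on the 6 months of treatment is attached to the arrays of both groups, and the group names tell them apart. TRAIL, a member of the tumour necrosis factor family, starts apoptosis through death receptors. Both groups were grown in RPMI with serum, and neither the time since the last TRAIL dose nor the number of clones or cultures behind the arrays is given. Resistance, long exposure to the ligand and time in culture therefore cannot be told apart.

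A microRNA begins as a hairpin within a longer primary transcript. In the nucleus the Microprocessor, made of the RNase DROSHA and the RNA-binding protein DGCR8, cuts the hairpin out. Exportin-5, the product of XPO5, carries it to the cytoplasm, where the RNase DICER1, helped by TARBP2 or PRKRA, trims it to a duplex. A strand of it is loaded into an Argonaute protein and pairs with messenger RNAs through its seed, bases 2 to 8. AGO2 is the Argonaute that can also cut its target. The study of these cells is known for its interest in miR-21, miR-30c and miR-100 in acquired TRAIL resistance. The arrays measured long transcripts, not mature microRNAs, which were not analysed here.

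The microRNAs whose hairpins lie within the 5 host genes are the sequences that tie these transcripts to the pathway, and the main arms are printed here from RefSeq (GRCh38.p14), read 5′ to 3′ with the seed in capitals. VMP1, a gene for a membrane protein of autophagy, overlaps miR-21 at its end (chr17:59841273-59841294, plus strand), and NFYC, a gene for a subunit of the transcription factor NF-Y, holds miR-30c (chr1:40757300-40757322, plus strand) and miR-30e in its span. MIR100HG is a long noncoding host of miR-100 (chr11:122152275-122152296, minus strand), let-7a and miR-125b, and MIR17HG is the host of the miR-17-92 cluster, with miR-17-5p at chr13:91350618-91350640 on the plus strand. MIR22HG is the host of miR-22 (chr17:1713914-1713935, minus strand).
miR-21-5p: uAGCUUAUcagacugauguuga
miR-30c-5p: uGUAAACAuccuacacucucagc
miR-30e-5p: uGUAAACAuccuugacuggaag
miR-100-5p: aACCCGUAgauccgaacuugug
let-7a-5p: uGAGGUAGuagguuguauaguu
miR-125b-5p: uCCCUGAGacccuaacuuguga
miR-17-5p: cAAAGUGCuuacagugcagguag
miR-18a-5p: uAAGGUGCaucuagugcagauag
miR-19a-3p: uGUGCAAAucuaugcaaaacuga
miR-20a-5p: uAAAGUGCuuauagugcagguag
miR-19b-3p: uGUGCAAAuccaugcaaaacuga
miR-92a-3p: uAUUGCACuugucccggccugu
miR-22-3p: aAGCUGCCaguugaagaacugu

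Both NFYC microRNAs share the seed GUAAACA, miR-17-5p and miR-20a-5p share AAAGUGC, and miR-19a-3p and miR-19b-3p share GUGCAAA. The other printed arms each had a seed of their own among these sequences. The RefSeq listing used here held 17 microRNA genes with 31 mature arms within the spans of the members. Of these listed arms, 12 lay in MIR17HG, 7 in MIR100HG, 4 in NFYC and 1, miR-21-5p, in VMP1. An arm absent from that listing is not counted. MicroRNA genes also lay within DGCR8 and DICER1, and none was found within DROSHA, XPO5 or AGO2.

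Of the 33 member probe sets, 11 were higher in resistant cells and 0 were lower by limma at an adjusted p below 0.05, and 22 did not pass. Over all probe sets, 9.13% rose and 10.4% fell. At an unadjusted p below 0.05 limma put 14 member probe sets higher and 1 lower. The shares of all probe sets at that unadjusted threshold were not computed, so these counts cannot be set beside the adjusted shares. Among probe sets at or above the median level, 10 of 27 members rose, against 16.4% of all such probe sets, and 0 fell, against 17.8%. Every resistant array lay above every sensitive array for 13 member probe sets, a pattern that 12.5% of all probe sets showed. The members' median change was 0.35 (resistant minus sensitive, log2 of signal + 1), and that of all probe sets was -0.04. The genes with a probe set that rose were MIR17HG, MIR22HG, DROSHA, DGCR8, DICER1 and AGO2, and VMP1, NFYC, MIR100HG and XPO5 had none. The share of all genes with any such probe set was not computed. In the limma fit over 1 probe set a gene, 14.7% of all genes rose. There MIR100HG, MIR17HG, DROSHA, DICER1 and AGO2 rose, and VMP1, NFYC and XPO5 were not called. MIR22HG and DGCR8 were not in that fit. By role, 8 of 18 probe sets of the processing genes rose and 3 of 15 of the host genes. The share over all probe sets was 9.13%, and 16.4% at or above the median level. Several of these probe sets read the same gene, so the counts by role are not counts of independent members. The members were chosen with earlier results of these data known, so their shares beside those of all probe sets are a description, not a test.

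**Figure D1:**
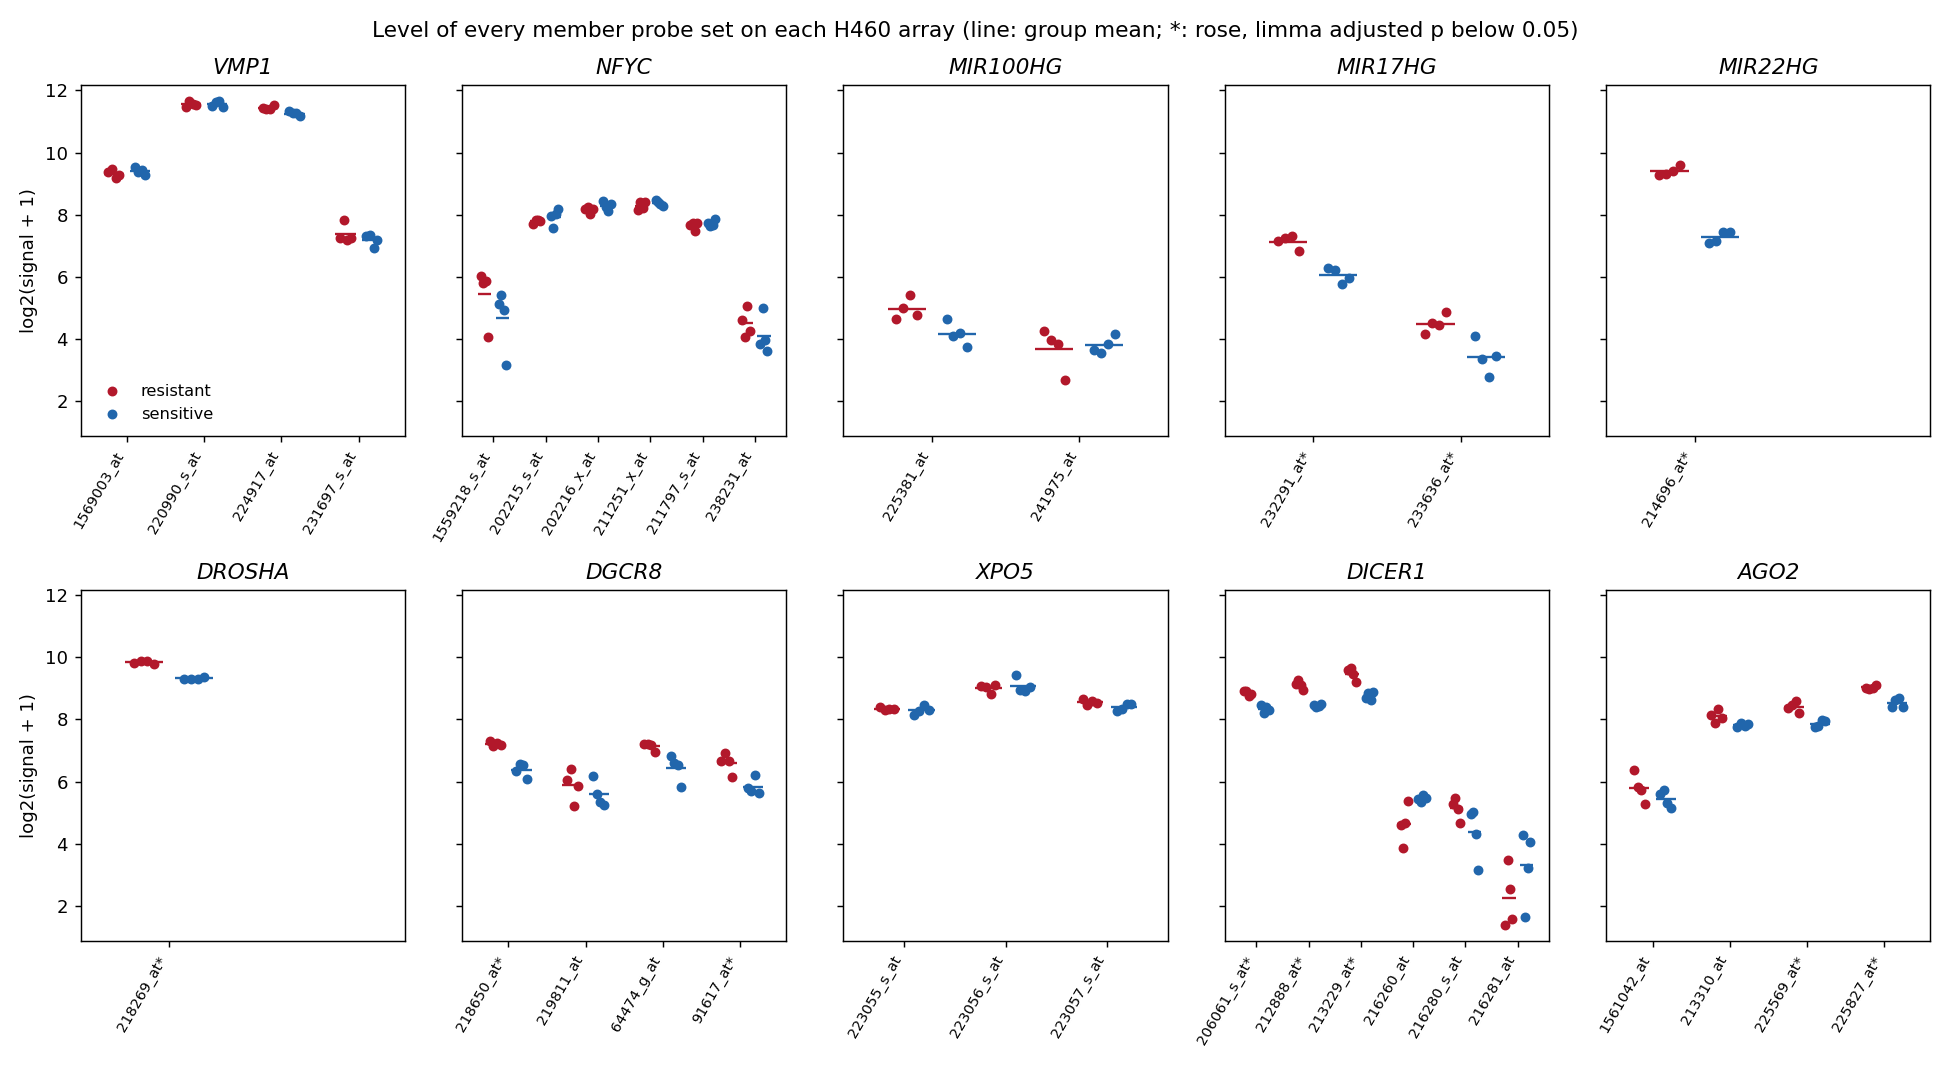
Level of each of the 33 member probe sets on each array as log2(signal + 1), 1 panel a gene, with resistant arrays (red) left of sensitive arrays (blue). Short lines are group means of 4 arrays and asterisks mark the 11 probe sets that rose. The groups stand clear of each other for MIR22HG and DROSHA and overlap for all 3 XPO5 probe sets.

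The platform annotation lists 12 of the 33 probe sets with more than 1 gene. The added names are microRNA genes within the member's own span (MIR21 beside VMP1, MIR22 beside MIR22HG, the cluster's microRNAs beside MIR17HG, MIR1306 beside DGCR8) or, for AGO2, CASC7, which RefSeq now treats as a synonym of AGO2. Without them, 6 of 21 member probe sets rose, and MIR22HG and DGCR8 have no probe set left. The share that rose among all probe sets with 1 symbol was not computed. Probe sets of this array are meant for long transcripts, so a name such as MIR21 beside VMP1 is no measure of the mature microRNA. Which long transcript such a probe set reads was not examined. Strand and splice form of the transcript read by each probe set are not given in the sources used here.

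MIR22HG showed the largest change of all members. Its probe set, 214696_at, annotated to both MIR22HG and MIR22, had signals of 614, 634, 676 and 779.8 on the resistant arrays, against 135, 143, 175 and 173 on the sensitive arrays. The lowest resistant array was thus far above the highest sensitive array. On the log2(signal + 1) scale the mean was 9.40 ± 0.15 in resistant and 7.29 ± 0.19 in sensitive cells (SD, n = 4 each). The change was 2.10 ± 0.13 (SE), a 4.30-fold difference, with an adjusted p of 0.000111 by limma.

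MIR17HG, the transcript of the miR-17-92 cluster, which is known as a MYC target in human cells and for its amplification in lymphoma, rose by both of its probe sets. 232291_at, annotated to MIR17HG and its microRNAs, had signals of 142, 150.3, 159 and 113 in resistant cells, against 77.1, 73.7, 54.0 and 61.5 in sensitive cells. The groups did not overlap, and the change was 1.07 ± 0.16 (SE), or 2.11-fold, with an adjusted p of 0.00386 by limma. 233636_at, annotated to MIR17HG alone, was dim, at 16.8, 22.0, 20.8 and 28.5 in resistant cells, against 16, 9.39, 5.92 and 10.1 in sensitive cells. Its lowest resistant array was close to its highest sensitive array. The change was again 1.07, with an SE of 0.29 and an adjusted p of 0.0380 by limma, which was above 0.05 in 7 of the 8 fits that left out an array (all but the fit without sensitive array 1) and reached 0.0882.

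VMP1 gave bright signals with no called change in its 4 probe sets. 220990_s_at, annotated to VMP1 and MIR21, had signals of 2827, 3234, 3003 and 2939 in resistant cells, against 2868, 3164, 3203 and 2803 in sensitive cells. The groups overlapped throughout, and the 95% interval of the change ran from -0.23 to 0.22. 224917_at, also annotated to both genes, had signals of 2746, 2706, 2720.3 and 2969 in resistant cells, against 2564, 2480.0, 2450.4 and 2285 in sensitive cells. Here every resistant array was above every sensitive array, but the change was 0.19 ± 0.09 (SE), with an interval from -0.02 to 0.39 and an adjusted p of 0.199 by limma. It passed in a fit with an intensity trend and a robust prior, at an adjusted p of 0.0255. The VMP1 probe set with no second gene, 1569003_at, had signals of 666, 701, 578 and 619 in resistant cells, against 739, 668, 692 and 624 in sensitive cells. Its change was -0.09 (interval -0.34 to 0.16), and that of the dimmer 231697_s_at was 0.18 (interval -0.24 to 0.61), with overlapping groups for both.

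The genes next to VMP1 on chromosome 17 gave 1 rise and 0 falls by limma among the 4 measured, all at or above the median level. Of all genes 14.7% rose and 15.6% fell, and of genes at or above that level 23.3% rose and 23.9% fell, so 1 of 4 is near the background. TUBD1, which encodes delta-tubulin, averaged 7.76 ± 0.12 in resistant and 7.13 ± 0.18 in sensitive cells (log2, SD, n = 4 each) and rose by 0.63 ± 0.11 (SE, limma adjusted p = 0.00511 over all genes). CLTC, the clathrin heavy chain, changed by 0.01 ± 0.08, HEATR6 by 0.05 ± 0.15 and RPS6KB1, the S6 kinase, by -0.20 ± 0.07 (SE), none of them past the threshold. The RPS6KB1 value passed it in 3 alternative fits.

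NFYC had 6 probe sets, none of them called. Of the 4 bright ones, 202216_x_at had signals of 293, 301, 262 and 293 in resistant cells, against 350.8, 305, 277 and 322 in sensitive cells. 202215_s_at had signals of 207, 226, 224 and 224 in resistant cells, against 248, 189, 258 and 289 in sensitive cells. In both, the groups overlapped. The changes of the bright probe sets lay between -0.14 and -0.08, and their intervals reached no further than -0.48 and 0.19. 1559218_s_at, a dimmer probe set, had a change of 0.78 with an interval from -0.68 to 2.23 and an adjusted p of 0.463 by limma, and 238231_at, below the median level, had a change of 0.40 with an interval from -0.42 to 1.22.

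MIR100HG was read by 2 probe sets, both below the median level. 225381_at had signals of 24.3, 31.3, 41.5 and 26.5 in resistant cells, against 24.2, 16, 17.4 and 12.3 in sensitive cells. All resistant arrays were above all sensitive arrays, the lowest of them by little. The change of 0.79 ± 0.24 (SE) missed the threshold over all probe sets, with an adjusted p of 0.0586 by limma. In a separate limma fit over 1 probe set a gene it passed, at 0.0402. The call thus depends on which features are fitted and adjusted together. This probe set also passed in 6 of the alternative fits, with changes in the same direction. 241975_at, with signals of 18.2, 14.6, 13.4 and 5.51 in resistant cells and 11.5, 10.8, 13.4 and 16.8 in sensitive cells, overlapped and had a change of -0.11 (interval -0.90 to 0.69).

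**Figure D2:**
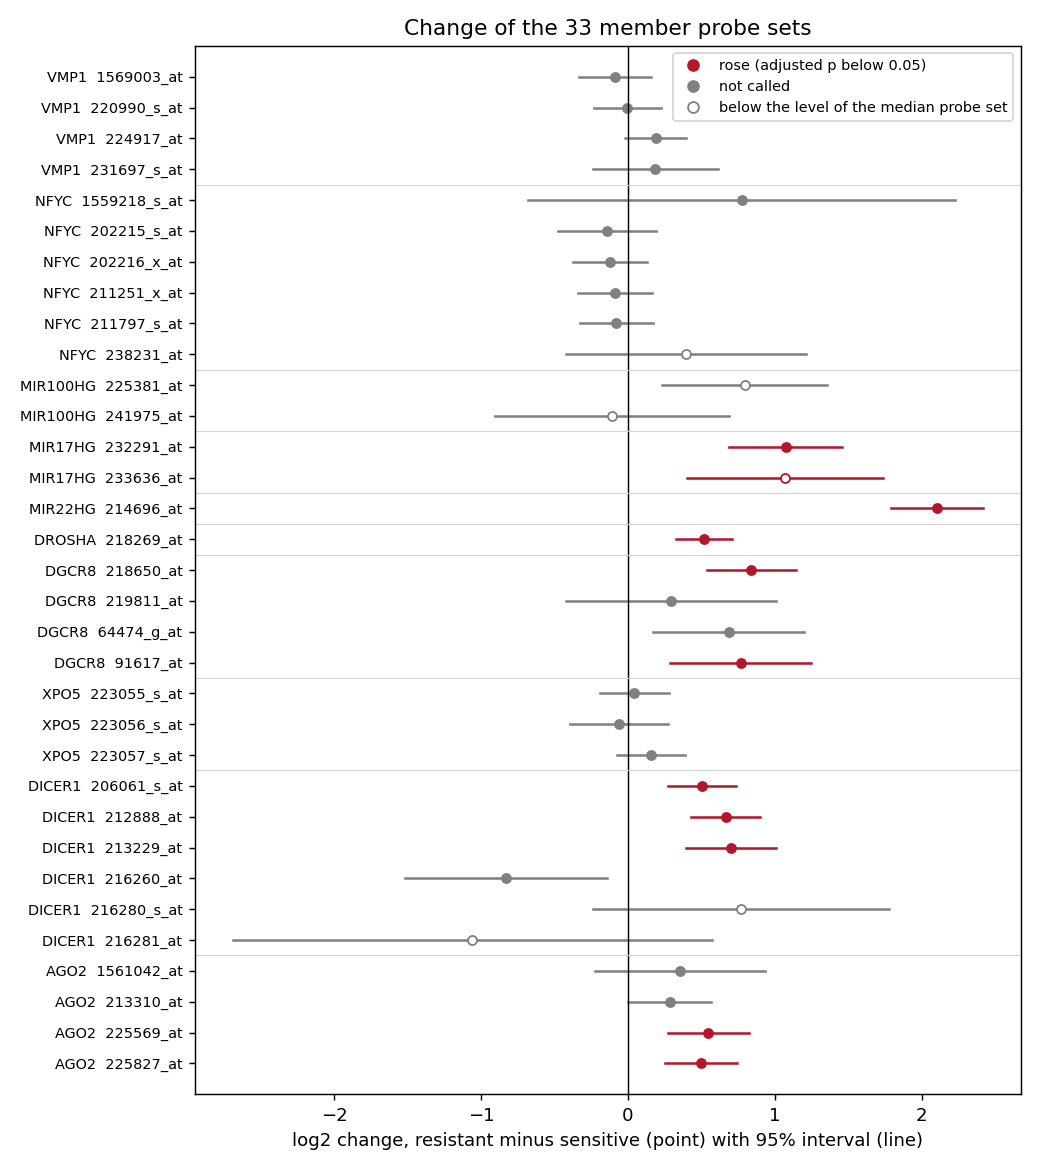
Change of each member probe set, resistant minus sensitive in log2(signal + 1) (point), with its 95% interval from limma (line). Red marks the 11 probe sets that rose and open circles the 6 below the level of the median probe set. MIR22HG stands apart at 2.10, and the VMP1 and XPO5 probe sets lie between -0.09 and 0.19.

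Of the nuclear processing genes, DROSHA had a single probe set, 218269_at, which rose. Signals were 895, 942, 941 and 870.1 in resistant cells, against 634, 635, 626 and 653 in sensitive cells. The groups were well separated. Means were 9.83 ± 0.06 in resistant and 9.32 ± 0.03 in sensitive cells (log2, SD, n = 4 each), and the change of 0.52 ± 0.08 (SE), or 1.43-fold, had an adjusted p of 0.00463 by limma.

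DGCR8, the partner of DROSHA, had 4 probe sets, all annotated to DGCR8 and MIR1306, and 2 of them rose. 218650_at had signals of 158, 139, 150.0 and 145 in resistant cells, against 79.5, 93.8, 91.3 and 67.3 in sensitive cells. Its groups were apart, and the change was 0.84 ± 0.13 (SE), or 1.79-fold, with an adjusted p of 0.00412 by limma. 91617_at had signals of 101, 121, 101 and 69.8 in resistant cells, against 54.0, 51.2, 73.3 and 48.6 in sensitive cells. The lowest resistant array fell within the sensitive range. The change of 0.77 ± 0.21 (SE) had an adjusted p of 0.0379 by limma, which was above 0.05 in 6 of the 8 fits that left out an array (all but those without sensitive array 3 and resistant array 4) and reached 0.0937. 64474_g_at had signals of 147, 147, 142 and 122 in resistant cells, against 112, 96.2, 92.0 and 55.5 in sensitive cells, a change of 0.69 ± 0.22 (SE) with no overlap and an adjusted p of 0.0697. It passed in 6 of the alternative fits. The change of 219811_at was 0.29 ± 0.31 (SE), with overlapping groups.

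XPO5, the export factor, gave no called change in any of its 3 probe sets. 223057_s_at had signals of 399, 349, 383 and 371 in resistant cells, against 309, 323, 358 and 357 in sensitive cells. 223055_s_at had signals of 333, 313, 320.2 and 324 in resistant cells, against 281, 309.9, 351.5 and 312 in sensitive cells. The groups overlapped in both. The changes of the 3 probe sets were 0.16, 0.04 and, for 223056_s_at, -0.06, and their intervals reached from -0.40 to 0.39, so these arrays leave room for changes of that size.

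DICER1, the cytoplasmic RNase, rose by each of its 3 bright probe sets. 212888_at had signals of 563, 616, 553 and 488 in resistant cells, against 349.7, 339.7, 344 and 360.0 in sensitive cells. 213229_at had signals of 764, 797, 697 and 588 in resistant cells, against 415, 461, 393 and 474 in sensitive cells. 206061_s_at had signals of 484, 478, 429 and 447 in resistant cells, against 349, 295, 337 and 311 in sensitive cells. All resistant arrays were above all sensitive arrays in each. The changes were 0.67 ± 0.10 (SE, adjusted p = 0.00370 by limma), 0.70 ± 0.13 (0.00904) and 0.51 ± 0.10 (0.0110), which correspond to 1.59-fold, 1.63-fold and 1.42-fold.

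The other DICER1 probe sets were dimmer and did not move as a group. 216260_at, just above the median level, had signals of 23.3, 13.5, 24.6 and 40.5 in resistant cells, against 42.2, 40.0, 46.0 and 43.5 in sensitive cells, with 1 resistant array inside the sensitive range. Its change was -0.83 ± 0.29 (SE), the only member difference downward at an unadjusted p below 0.05, with an adjusted p of 0.0968 by limma. Without resistant array 4 it passed, at -1.08 and an adjusted p of 0.0195. Two-sided exact permutation tests on the difference between each bright DICER1 probe set and 216260_at gave p = 0.0286, the smallest that 70 assignments of arrays allow. Over the 53 pairs of probe sets of a gene, the smallest adjusted p of these tests was 0.379. With that floor no pair could pass after adjustment unless most pairs reached it. The lack of a pass therefore does not show that probe sets of a gene changed alike. Unadjusted, 4 pairs reached 0.0286, the other one being VMP1 1569003_at against 224917_at. 216280_s_at and 216281_at, both below the median level, had changes of 0.77 ± 0.43 and -1.06 ± 0.70 (SE).

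AGO2 rose by 2 of its 4 probe sets. 225827_at, annotated to AGO2 alone, had signals of 513, 506, 515 and 548 in resistant cells, against 335, 397, 409 and 339 in sensitive cells. 225569_at, annotated to AGO2 and CASC7, had signals of 329, 354, 381 and 296 in resistant cells, against 213, 217, 249 and 248 in sensitive cells. Neither pair of groups overlapped. The changes were 0.50 ± 0.11 (SE, adjusted p = 0.0155 by limma) and 0.55 ± 0.12 (0.0162), which correspond to 1.41-fold and 1.46-fold. 213310_at, at 281, 235, 325 and 262 in resistant cells against 215, 238, 218 and 228 in sensitive cells, and the dimmer 1561042_at had changes of 0.29 and 0.35 that did not pass, although 213310_at did, at an adjusted p of 0.0489, when dim probe sets were left out before the adjustment.

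The paralogs of AGO2 and the partners of DICER1 did not share 1 direction. AGO4 fell by 3 of its 4 probe sets. 227930_at had signals of 145, 157, 183 and 149 in resistant cells, against 359.7, 378, 379 and 318 in sensitive cells. That change was -1.18 ± 0.10 (SE), with an adjusted p of 0.000636 by limma over all probe sets. None of the 4 AGO1 probe sets was called, with changes between -0.40 and 0.18. AGO3 was split: 219426_at fell by 0.61 (adjusted p = 0.0213) and 228932_at rose by 0.78 ± 0.13 (SE, adjusted p = 0.00618), so that the direction for AGO3 depends on the probe set.

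TARBP2, a double-stranded RNA-binding partner of DICER1, had signals of 493, 448, 400.2 and 425 in resistant cells, against 217, 262, 226 and 274 in sensitive cells by 203677_s_at. That probe set rose by 0.85 (adjusted p = 0.00289 by limma), and the dim second probe set, 239389_at, had a change of 0.42 that did not pass. PRKRA, the other such partner, had signals of 574, 577, 542 and 574 in resistant cells, against 823, 849, 895 and 831 in sensitive cells by 209139_s_at. It fell by 0.58 (adjusted p = 0.00295), and its second probe set, 237107_at, had a change of -0.20 that did not pass. With the probe sets of each gene averaged, PRKRA missed the threshold, at -0.39 and an adjusted p of 0.0656 over all genes, and TARBP2 passed, at 0.63 and 0.0425. Without probe sets whose names carry a suffix, which leaves the second probe set of each, neither passed (adjusted p = 0.550 for TARBP2 and 0.581 for PRKRA). LIN28A and LIN28B, which block the processing of let-7 precursors, were below the median level, with changes of 0.14 ± 0.56 and 0.58 ± 0.77 (SE) and no call. LIN28B passed only without sensitive array 1 and resistant array 4, at 0.85 and an adjusted p of 0.0189 over all genes.

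**Figure D3:**
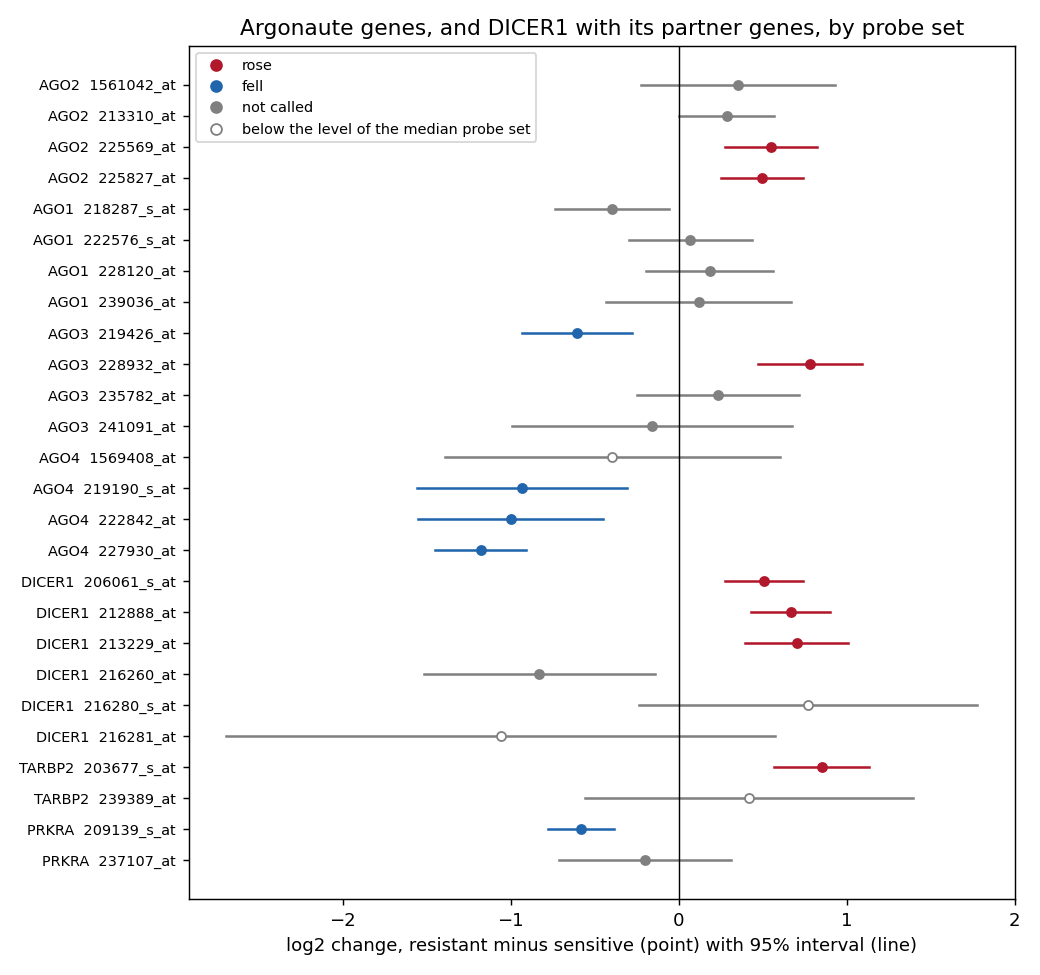
Change of each probe set of the Argonaute genes, of DICER1 and of its partners TARBP2 and PRKRA, resistant minus sensitive in log2(signal + 1) (point), with 95% intervals from limma (lines). AGO4 lies left of 0 where AGO2 lies right of it, and AGO3 has a called probe set on each side.

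Over the wider microRNA pathway, 61 further genes were compared with 1 probe set each. Of these, 15 rose and 19 fell in resistant cells and 27 did not pass, against 14.7% of all genes that rose and 15.6% that fell. The called genes were all among the 58 at or above the median level, where 23.3% of all genes rose and 23.9% fell. Their median change was -0.06, beside -0.03 over all genes. The 6 largest called changes went both ways. CNOT8, a deadenylase subunit of the CCR4-NOT complex, fell to signals of 902, 885, 941 and 915 in resistant cells, against 2629, 2719.7, 3119.6 and 2851 in sensitive cells. That is a change of -1.63 ± 0.08 (SE), with an adjusted p of 1.56e-05 by limma over all genes. AJUBA, a LIM protein linked to microRNA silencing, fell by 1.43 ± 0.09 (SE, adjusted p = 4.42e-05), and PAN2, a subunit of another deadenylase, fell by 1.0 ± 0.14 (0.00140). AGO4, described above, was the fourth that fell.

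SRRT, known as ARS2 and a link between the cap-binding complex and the Microprocessor, rose to signals of 2008, 1797, 1869 and 1818 in resistant cells, against 921, 879.9, 955 and 924 in sensitive cells. The change was 1.02 ± 0.07 (SE), with an adjusted p of 6.6e-05 by limma over all genes. GEMIN4, a protein found with Argonaute in human cells and a part of the SMN complex, rose by 1.06 ± 0.10 (SE, adjusted p = 0.000224). Both had every resistant array above every sensitive array.

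Of 46 other genes listed as hosts of microRNAs, 38 were measured. Of these 9 rose, 10 fell and 19 missed the threshold, and the median change was 0.04, beside -0.03 over all genes. Among the 34 at or above the median level 8 rose and 10 fell, against 23.3% and 23.9% of all such genes. Centring each array on its median gave 11 that rose and 8 that fell, so the balance of directions depends on the scaling. The same centring turned the balance over all genes too, from 2900 that rose and 3086 that fell to more that rose than fell. It moved the median change of all probe sets from -0.04 to 0.03. The turn is therefore not particular to these hosts. SLIT2, a secreted guidance ligand and host of a miR-218 gene, had signals of 142, 134, 134 and 148 in resistant cells, against 48.1, 49.4, 38.1 and 47.9 in sensitive cells. It rose by 1.59 ± 0.10 (SE, limma adjusted p = 5.17e-05 over all genes). PPARGC1B, a coactivator and host of miR-378a, rose by 1.77 ± 0.19 (0.000476), and MIR31HG, the host of miR-31, rose by 0.89 ± 0.22 (0.0221). The MIR31HG call was lost in 6 of the 8 fits that left out an array (all but those without sensitive array 1 and resistant array 2), with adjusted p-values up to 0.0598.

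MIR210HG, the host transcript of miR-210, a microRNA known for its induction in hypoxia, had signals of 104, 101, 133 and 125 in resistant cells, against 425, 299, 377 and 368 in sensitive cells. It fell by 1.66 ± 0.14 (SE, limma adjusted p = 0.000179 over all genes). CTDSP1 and CTDSP2, phosphatases that host miR-26 genes, fell by 0.97 ± 0.09 (0.000254) and 0.75 ± 0.08 (0.000371). Hosts of this list thus included called changes of over 1 log2 unit in each direction, as the plot of the members beside the lists shows.

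**Figure D4:**
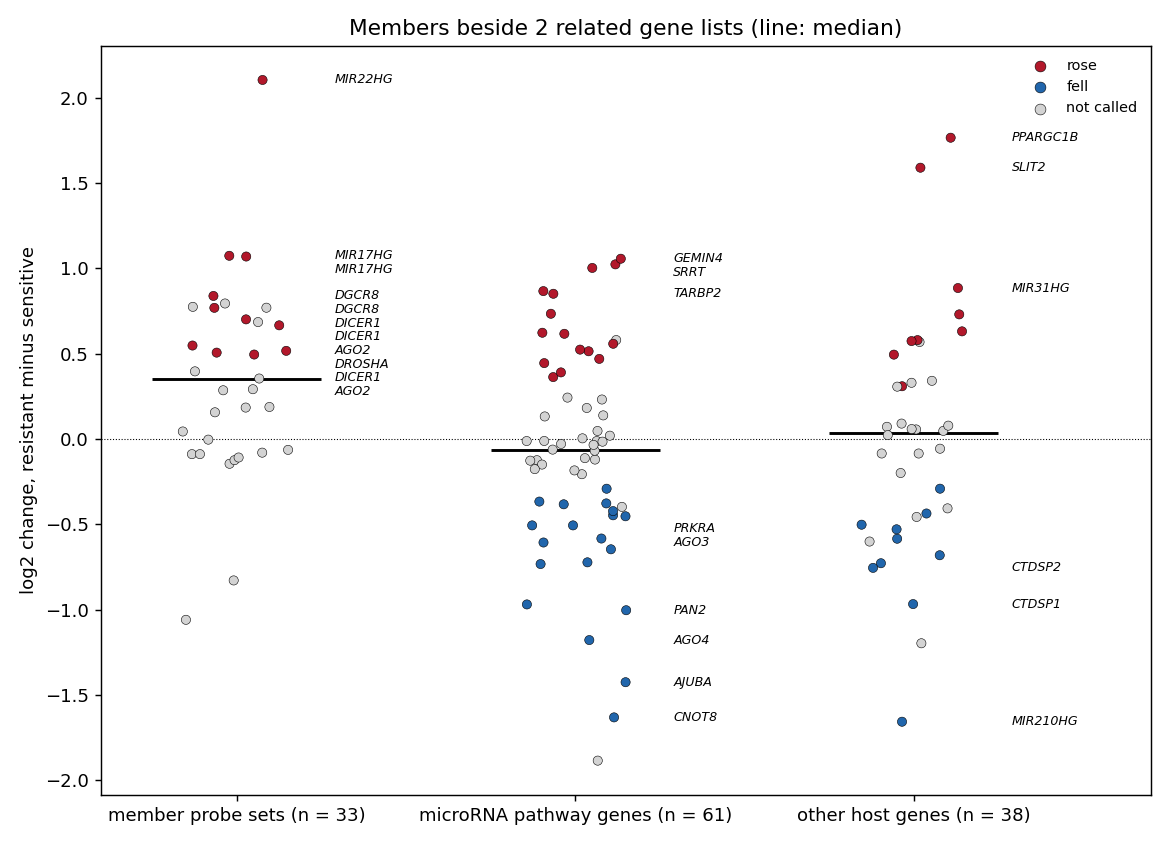
Change, resistant minus sensitive in log2(signal + 1), of the 33 member probe sets, the 61 microRNA pathway genes and the 38 measured other host genes. Each point is a probe set, horizontal lines are medians (0.35, -0.06 and 0.04) and colours mark calls by limma, over all probe sets for the members and over all genes for the lists.

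The arrays were of similar brightness. Median signals were 32.6 to 37.5, the mean correlation of an array with its own group was 0.937 to 0.952 and with the other group 0.921 to 0.928, and no 2 arrays were identical. The 3′ minus 5′ difference of the ACTB control probe sets, a measure of RNA integrity and labelling, averaged 0.11 in resistant and 0.23 in sensitive arrays (difference -0.12, exact permutation p = 0.0286, the smallest possible), while that of GAPDH differed by 0.02 (p = 0.686). The ACTB difference moved with the groups and its part in the member changes was not tested. Of the epithelial markers KRT8 and KRT18 were high (11.36 and 13.12 in resistant, 11.41 and 13.18 in sensitive cells, log2 means), and KRT19 fell by 1.24 with a high level in both groups, whereas EPCAM and CDH1 were below the median level in both groups. Of the markers of other cells, PTPRC and CD3E (blood cells), CDH5 and VWF (endothelium) and COL1A2 (fibroblasts) were also below it in both groups, although CD14, PECAM1, COL1A1 and COL3A1 were not. By the mean over all arrays, 4 of 6 epithelial, 1 of 3 blood cell, 1 of 3 endothelial and 2 of 5 fibroblast markers measured were at or above it. The fibroblast markers LUM and DCN were below it in resistant cells only. LUM averaged 2.48 in resistant and 5.75 in sensitive cells (log2) and fell by 3.27 (limma adjusted p = 0.00337), with resistant signals of 0.73 to 8.96. DCN averaged 4.05 in resistant and 5.21 in sensitive cells and was not called. With the probe sets of each gene averaged, neither was called: LUM changed by -1.26 (limma adjusted p = 0.0581) and DCN by -0.22. Their part in the member changes was not tested. Since the arrays were scaled to a common mean, a change in total RNA per cell cannot be told apart from none.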

How the data were processed

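RNA of H460 cells on 8 arrays, extracted with Trizol and labelled with biotin per the labels' protocols, was measured with an Affymetrix design. What the authors deposited is an intensity on a linear scale for each of 54675 probe sets, 62 of them controls. The submitters' processing notes name RMA, but the deposited intensity values have a trimmed mean (2% off each end) of 200 on every array, as MAS 5-type signals do, so the step is not settled. Depth does not apply to arrays, and 4 arrays per group limit the precision. Whether arrays of a group stem from different cultures is not given, and the p-values measure only the spread between arrays, which may be technical.

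Signals were used as log2(signal + 1), and a fold change on that scale understates changes of dim genes. The groups were compared with limma 3.58.1 under R 4.3.3, by lmFit and eBayes, and Benjamini-Hochberg adjustment over 54613 probe sets. The lists were compared with 1 probe set a gene (the highest mean, 1 symbol), adjusted over 19775 genes. Pairs of probe sets and array measures had exact two-sided permutation tests. The fit was tested on simulated data. Names came from the platform annotation (41097 probe sets with 1 symbol, 1801 with several), updated by gene ID through RefSeq (GRCh38.p14), which matched 41043. MicroRNA sequences are RefSeq's.

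All member probe sets are described. Of each wider list up to 6 genes with the largest called changes are named, with all measured genes beside VMP1 and the paralogs AGO1, AGO3 and AGO4, the partners TARBP2 and PRKRA, and LIN28A and LIN28B. Members and lists were chosen with earlier results of these data known. Alternatives covered normalization, pseudocount, dim probe sets, priors, array weights, the GAPDH difference, a replicate block, other choices of probe set and leaving out arrays.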

Additional observations from a re-analysis of the deposited data

Results flagged for a closer look

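Of 66 groups of 4 arrays (33 member probe sets in 2 groups), 4 held an array far from the other 3 by Dixon's criterion, where chance gives about 1 in 20. All 4 were in resistant cells. For VMP1, resistant array 4 was highest with 224917_at, at a log2 level of 11.54 against 11.40 to 11.42 on the other resistant arrays, and resistant array 2 was highest with 231697_s_at, at 7.84 against 7.19 to 7.27. For NFYC, resistant array 4 was lowest with 1559218_s_at, at 4.08 against 5.80 to 6.05, and resistant array 1 was lowest with 202215_s_at, at 7.70 against 7.81 to 7.82. None of these probe sets was called.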

How the results depend on the processing

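None of the 11 called member probe sets reversed under any alternative run. MIR22HG 214696_at, MIR17HG 232291_at, DGCR8 218650_at and DICER1 212888_at passed under every one, and 9 of the 11 passed with any single array left out, MIR17HG 233636_at and DGCR8 91617_at being the exceptions. Member probe sets that rose numbered 9 to 11 with an array left out and 6 when only members with 1 symbol were kept. Over all probe sets, those that rose numbered 3542 to 4559 with an array left out, against 4984 in the main fit. The share among all probe sets with 1 symbol was not computed. Those that fell numbered 1 with dim probe sets left out, with array weights, and without sensitive array 1 and resistant array 4, the pair with the lowest correlations with their own group, chosen after seeing the data, and 0 to 1 with an array left out (1 without resistant array 4). In each case this was DICER1 216260_at. AGO2 225827_at had an adjusted p of 0.0639 without that pair of arrays.

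Whether the replicate numbers of the labels pair arrays of the 2 groups is not given. Deviations from the group means correlated at -0.05, 0.10, 0.03 and -0.09 for arrays with the same number. For arrays with different numbers they correlated at -0.10 to 0.15. Such correlations over many probe sets cannot exclude a pairing by culture or run. With a replicate block, 4 member probe sets rose, and over all probe sets 2190 rose and 2872 fell.

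The microRNA pathway list gave 11 that fell when the probe sets of a gene were averaged. Without probe sets whose names carry a suffix, 9 rose and 11 fell of 53 measured, and 5 of 33 other hosts rose. Calls over all genes dropped as well, from 2900 that rose and 3086 that fell to 1953 and 2155 without suffixed probe sets. Averaging also lowered both counts over all genes. Whether the lists lost more calls than all genes did was not tested. RPS6KB1 was the 1 gene beside VMP1 that fell with dim probe sets left out, with an intensity trend and robust prior, and with the GAPDH difference as a covariate. The cause was not tested.

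Some signs turned. Among called values this was AGO3, which fell by the probe set of highest mean and changed by 0.0629 when its probe sets were averaged, and all others had not been called. VMP1 220990_s_at had 0.0692 with median centring and -0.0400 to 0.0274 with an array left out. MIR100HG 241975_at had 0.0427 with array weights, 0.169 without the pair of arrays and -0.297 to 0.222 with an array left out. XPO5 223055_s_at had -0.0092 without the pair and -0.00679 to 0.101 with an array left out, and XPO5 223056_s_at 0.0092 with median centring, 0.0158 without the pair and -0.123 to 0.0487. CLTC had -0.0160 with array weights, -0.0220 without the pair, -0.0373 with probe sets averaged and -0.0490 to 0.0404, HEATR6 -0.0140 to 0.159, RPS6KB1 0.10 with probe sets averaged, AGO1 0.18 without suffixed probe sets and LIN28A -0.40 to 0.48. Signal near background limits the dim probe sets.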
